A study of Homo sapiens with 2 samples.

Results

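Expression of 10 genes of bile acid synthesis, bile acid export and farnesoid X receptor (FXR) feedback was compared in HepG2 cells, a human hepatocellular carcinoma line, between 2 RNA-seq libraries. The 10 genes were chosen by name, with earlier results of these data known, and found by Ensembl identifier among 60623 gene entries. They are the feedback genes NR1H4, NR0B2 and FGF19, the transporter genes SLC51A, SLC51B and ABCB11, and the enzyme genes CYP7A1, CYP8B1, CYP27A1 and CYP7B1. The cells of both libraries were wild type and were loaded with 1 mM FFA, a mixture of oleic and palmitic acid in a 2:1 molar ratio, for 24 h. For the second library 9-cis-RA was added at 10 μM. It is an isomer of retinoic acid and a ligand of both RXR and RAR nuclear receptors. Each group had 1 library and the sample records place both in the same batch, so there was no replicate error and no test of the treatment. HepG2 is a tumor line, and all values are those of this line under fatty acid loading, since neither library came from unloaded cells. In such bulk libraries, fewer cells of a type and less RNA per cell cannot be told apart.

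Bile acids are made from cholesterol in hepatocytes, and their synthesis is held down by the bile acids themselves. Bile acids bind FXR, encoded by NR1H4, which acts on DNA mostly as a dimer with RXR. FXR raises NR0B2, whose product SHP is a nuclear receptor without a DNA-binding domain that represses CYP7A1 and CYP8B1. In the ileum FXR raises FGF19, a hormone that lowers CYP7A1 in the liver through the receptor FGFR4 and its partner KLB. FXR also raises ABCB11, the canalicular bile salt export pump, and SLC51A and SLC51B, the subunits of the basolateral transporter OSTα-OSTβ.

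The deposited values were fragment counts per gene, with totals of 60821539 for FFA and 57669670 for FFA + 9-cis-RA. Log2 fold changes compare FFA + 9-cis-RA with FFA after division by size factors and addition of a pseudocount of 1 to each normalized count, and each carries an exact 95% counting interval. The interval leaves the pseudocount out, covers counting error only and describes these 2 libraries. Retinoid response genes that serve as a label check, CYP26A1, RARB and DHRS3, each had more normalized counts in the FFA + 9-cis-RA library. Hepatocyte markers were present, with 10 of 10 compared and summed levels of 19697 CPM in FFA and 17069 CPM in FFA + 9-cis-RA. They did not share a direction, with 6 intervals below 0 and 4 above, against 25.7% and 22.5% of all genes compared. With scaling to total counts 5 lay below, against 20.6% of all genes compared. Such shares grow with the count of a gene. AFP (log2 fold change -0.99), ALB (-0.70), GPC3 (-0.69), TTR (-0.27), TF (-0.19) and HNF4A (-0.14) were lower. FGB (0.84) was higher, while APOA1 (0.039), APOB (0.050) and SERPINA1 (0.036) were above 0 by small amounts. The genes of the hepatocyte bile acid uptake carriers SLC10A1, SLCO1B1 and SLCO1B3 had 0 counts in both libraries, which allows up to 3 counts or 0.0493 CPM in FFA and 0.0520 CPM in FFA + 9-cis-RA. Genes of the same strand overlap 54.5% of the exonic bases of SLCO1B3 and 11.1% of those of SLCO1B1. Fragments shared by genes were not counted, so the limit does not cover these parts.

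In the FFA + 9-cis-RA library SLC51B, NR0B2, SLC51A and FGF19 were higher, while CYP7A1 and NR1H4 were lower. CYP27A1 was lower by a small amount, CYP8B1 had an interval that held 0, and CYP7B1 and ABCB11 were too low to compare. A minimum of 10 counts over both libraries was met by 8 of the 10 genes and by 20431 genes in all. Of the 8 genes, 2 had a log2 fold change above 1, against 3.37% of all genes compared, and 1 had a value below -1, against 4.90%. The interval lay above 0 for 4 of the 8 and below 0 for 3, against 22.5% and 25.7% of all genes. With total-count scaling the counts of these 8 genes were the same, but genes with an interval above 0 made up 58.2% of all genes whose interval excluded 0, against 46.7% with the size factors used. The interval excluded 0 for 7 of the 8, against 48.1% of all genes, a share that grows with the count of a gene. The whole interval lay above 1 for SLC51B alone and below -1 for CYP7A1 alone among the 8 genes, against 0.387% and 0.930% of all genes. The median log2 fold change of the 8 genes was 0.18, with values from -4.59 to 1.88, beside a median of -0.020 for all genes.

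**Figure D1:**
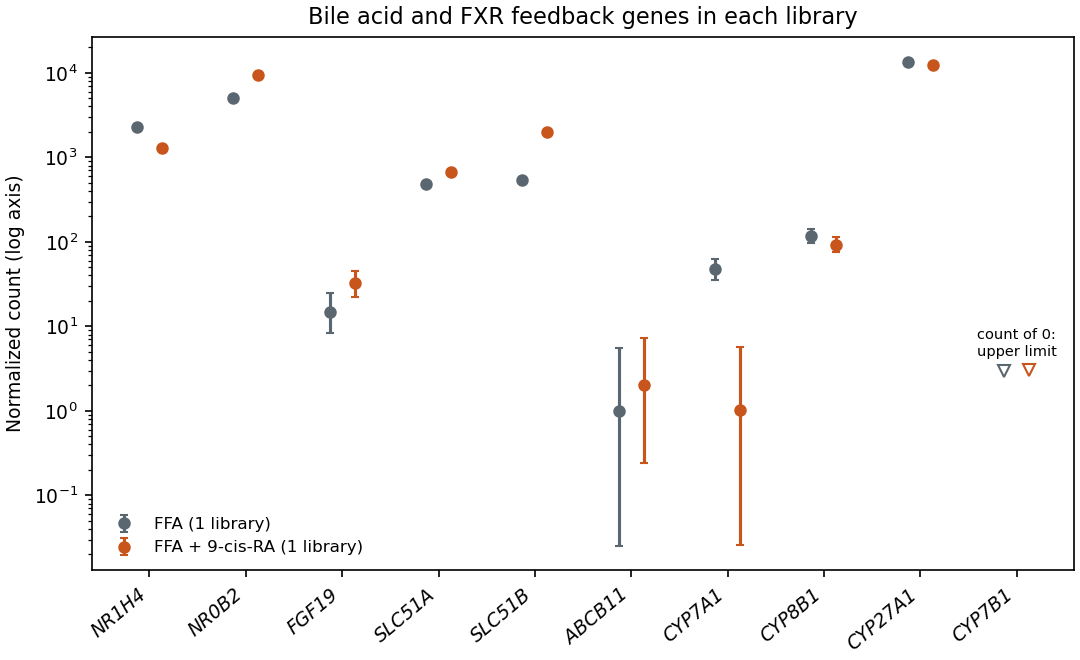
Normalized count (log axis) of each of the 10 genes in the FFA library (gray) and the FFA + 9-cis-RA library (orange), 1 library each. Bars are exact 95% Poisson intervals for counting error. Open triangles mark a fixed limit of 3 counts, not a Poisson interval, for CYP7B1, with 0 counts in both. SLC51B stands at 537 and 1984, and CYP7A1 at 47.5 and 1.01.

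The nuclear receptors of the feedback loop went in opposite directions. NR1H4, on chromosome 12 from 100473708 to 100564414 of GRCh38, had 2305 counts in FFA and 1260 in FFA + 9-cis-RA. Its log2 fold change was -0.84 (95% interval -0.94 to -0.74), a level 1.79-fold lower (95% interval 1.67 to 1.92). NR0B2, on chromosome 1 from 26911489 to 26913975, had 5085 counts in FFA and 9244 in FFA + 9-cis-RA. Its log2 fold change was 0.89 (95% interval 0.84 to 0.94), a level 1.85-fold higher. SHP transcripts were thus more abundant in the library in which transcripts of the receptor that raises them were less abundant. The ratio of NR0B2 to NR1H4 fragments, which does not depend on how the libraries are scaled to each other, was 2.21 in FFA and 7.34 in FFA + 9-cis-RA. It differed 3.33-fold (95% interval 3.08 to 3.59). The counts of NR1H4 do not separate its transcripts, of which GENCODE 29 lists 11.

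Ranked among all genes with at least as many counts, NR0B2 had the 9th highest log2 fold change of 1601 and NR1H4 the 60th lowest of 6630. RXRA, which encodes a partner of FXR, had 8291 counts in FFA and 5978 in FFA + 9-cis-RA, which gave -0.44 (95% interval -0.49 to -0.40) on the log2 scale. RXRB had 2162 and 2608 counts, which gave 0.30 (95% interval 0.22 to 0.38) on the log2 scale. The partner genes of FXR therefore did not share a direction.

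FGF19, on chromosome 11 from 69698238 to 69704022, was detected at a low level, with 15 counts in FFA and 32 in FFA + 9-cis-RA. Its log2 fold change was 1.07 (95% interval 0.19 to 2.11), a level 2.17-fold higher with an interval from 1.14-fold to 4.32-fold. The ratio of FGF19 to NR0B2 fragments was 0.00295 in FFA and 0.00346 in FFA + 9-cis-RA, and the interval of its change, 0.617 to 2.33, held 1. The FGF19 receptor genes were well counted. FGFR4 had 37255 and 35883 counts, which gave -0.027 (95% interval -0.047 to -0.0055) on the log2 scale. This small value had no stable sign, since it was -0.0066 with an interval that held 0 under TMM and 0.023 with an interval above 0 under total counts. KLB had 4358 and 3328 counts, which gave -0.36 (95% interval -0.43 to -0.30) on the log2 scale.

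The subunits of OSTα-OSTβ were both higher in the FFA + 9-cis-RA library, but by different amounts. SLC51B, on chromosome 15 from 65045387 to 65053397, had 542 counts in FFA and 1965 in FFA + 9-cis-RA. Its log2 fold change was 1.88 (95% interval 1.75 to 2.03), a level 3.70-fold higher (95% interval 3.36 to 4.07). SLC51A, on chromosome 3 from 196211487 to 196243178, was counted 482 times in FFA and 665 times in FFA + 9-cis-RA, which gave 0.49 (95% interval 0.32 to 0.66) on the log2 scale and a level 1.41-fold higher. The ratio of SLC51B to SLC51A fragments went from 1.12 in FFA to 2.95 in FFA + 9-cis-RA, a 2.63-fold difference (95% interval 2.25 to 3.06). Set against NR0B2, SLC51B also differed by more, 1.99-fold (95% interval 1.80 to 2.21). SLC51B had the 2nd highest log2 fold change among the 7871 genes with at least as many counts, and SLC51A the 183rd highest among 10049. Genes of the opposite strand overlap 6.60% of the exonic bases of SLC51B and 7.39% of those of SLC51A, and the counting used strand.

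ABCB11, on chromosome 2 from 168915498 to 169031324, had 1 count in FFA and 2 in FFA + 9-cis-RA. Both lie under the limit of 3 counts that a count of 0 allows, so no fold is given. Per length it stood at 0.00618 TPM in FFA and 0.0134 TPM in FFA + 9-cis-RA, below both OSTα-OSTβ subunit genes.

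**Figure D2:**
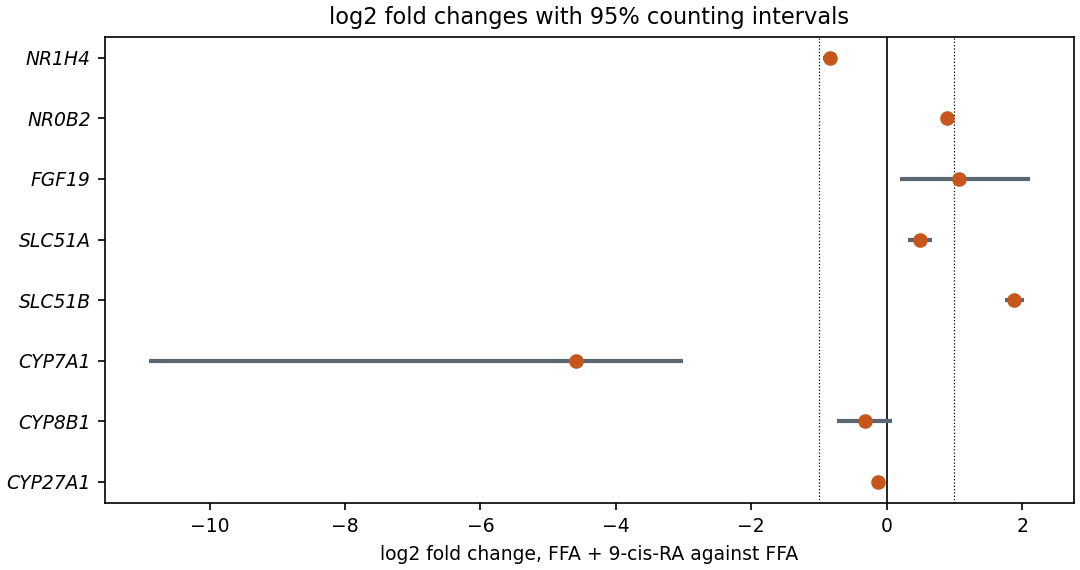
Log2 fold change of the 8 genes compared (points) with exact 95% counting intervals (lines), FFA + 9-cis-RA against FFA; dotted lines mark -1 and 1. SLC51B stands at 1.88 with its whole interval above 1, and CYP7A1 at -4.59 with an interval down to -10.9.

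RefSeq promoter windows on GRCh38.p14, from 250 bases before to 50 bases after the annotated start, were held for 5 of the 10 genes, namely SLC51A, SLC51B, NR1H4, ABCB11 and CYP27A1. They were searched on both strands for the nuclear receptor hexamer AGGTCA and for pairs of it, with at most 2 mismatches in the 12 letters compared. The pairs were an inverted repeat spaced by 1 base, the arrangement FXR-RXR prefers, and direct repeats spaced by 1 or 5 bases, used by RXR and RAR dimers. The exact hexamer was found in the windows of SLC51B and NR1H4, against 13.8% of all 35116 windows. The inverted repeat was found in those of SLC51B and ABCB11, against 1.12% of all windows, and its first 6 bases in SLC51B are the exact hexamer. No window of the 5 held either direct repeat, against 2.97% of all windows for a spacing of 1 base and 2.47% for a spacing of 5 bases. With shares this low, none among 5 windows says little about these genes. The fewest mismatches were 3, in SLC51A and NR1H4 for a spacing of 1 base and in SLC51B and ABCB11 for 5 bases. A match describes letters and is not evidence of binding, and repeats with more than 2 mismatches were not marked.

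Of the 5 windows, 3 are shown 5′ to 3′ because SLC51B, SLC51A and NR1H4 differed most between the libraries among the genes with a window. Capitals mark the matches, at positions -54 to -42 before the start in SLC51B and -230 to -225 in NR1H4, and SLC51A has none. The SLC51B window is chr15:65045137-65045436 (+ strand), that of SLC51A is chr3:196216284-196216583 (+ strand) and that of NR1H4 is chr12:100503110-100503409 (+ strand). The RefSeq start is also the start of the counted gene for SLC51B, but lies 5047 bases inside it for SLC51A and 29652 bases inside it for NR1H4.
SLC51B: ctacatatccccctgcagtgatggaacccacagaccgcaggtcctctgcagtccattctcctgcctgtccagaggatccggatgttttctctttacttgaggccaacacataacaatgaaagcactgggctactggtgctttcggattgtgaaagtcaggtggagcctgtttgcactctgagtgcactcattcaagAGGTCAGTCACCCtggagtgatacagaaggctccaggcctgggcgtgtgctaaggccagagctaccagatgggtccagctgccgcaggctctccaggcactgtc
SLC51A: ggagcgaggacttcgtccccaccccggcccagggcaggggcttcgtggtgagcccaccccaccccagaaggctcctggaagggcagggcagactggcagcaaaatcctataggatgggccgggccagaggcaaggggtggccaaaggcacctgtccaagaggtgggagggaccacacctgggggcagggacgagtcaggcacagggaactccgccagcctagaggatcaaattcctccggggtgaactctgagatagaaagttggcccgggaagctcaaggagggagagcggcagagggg
NR1H4: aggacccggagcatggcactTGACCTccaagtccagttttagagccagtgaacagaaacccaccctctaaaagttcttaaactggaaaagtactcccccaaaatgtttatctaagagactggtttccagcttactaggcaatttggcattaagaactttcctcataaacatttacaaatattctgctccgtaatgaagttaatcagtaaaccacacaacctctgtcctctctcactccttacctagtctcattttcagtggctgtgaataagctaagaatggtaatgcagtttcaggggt
The 13 bases that matched in ABCB11, which was barely counted here, lie at positions -96 to -84 and are shown for comparison with those of SLC51B. Both stretches were marked by letters alone, with 2 mismatches each. Where FXR acts in either window was not tested.
ABCB11: atgtcactgaact
SLC51B: aggtcagtcaccc

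The genes that open the synthesis pathways behaved unlike each other. CYP7A1 encodes the rate-limiting enzyme of the classical pathway, cholesterol hydroxylase. The gene spans bases 58490178 to 58500163 of chromosome 8. Its counts were 48 in FFA and 1 in FFA + 9-cis-RA. Its log2 fold change of -4.59 (95% interval -10.9 to -3.01) was the lowest of all 20431 genes compared. As a ratio without the pseudocount its level was 47.1-fold lower, and with a single count left the interval ran from 8.06-fold to 1898-fold. The level in FFA was itself low, at 0.789 CPM (95% interval 0.582 to 1.05). The estimate moved to -3.13 with a pseudocount of 5.

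CYP8B1, which encodes the hydroxylase that directs synthesis toward cholic acid, spans bases 42856005 to 42875898 of chromosome 3 and is, like CYP7A1, repressed by SHP. Its counts were 118 in FFA and 92 in FFA + 9-cis-RA, which gave -0.33 on the log2 scale, and the interval (-0.74 to 0.074) held 0. The ratio of CYP7A1 to CYP8B1 fragments went from 0.407 to 0.0109, a 37.1-fold difference (95% interval 6.10 to 1525). The SHP-repressed enzyme genes thus differed from each other beyond counting error in these libraries.

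CYP27A1 encodes the mitochondrial hydroxylase that opens the alternative pathway and spans bases 218781749 to 218815293 of chromosome 2. Its counts were 13693 in FFA and 12274 in FFA + 9-cis-RA, which gave -0.13 (95% interval -0.17 to -0.095) on the log2 scale. The ratio of CYP7A1 to CYP27A1 fragments was 43.0-fold lower in FFA + 9-cis-RA (95% interval 7.36 to 1735). CYP7B1, which encodes the next enzyme of the alternative pathway, had 0 counts in both libraries, which allows up to 0.0493 CPM in FFA and 0.0520 CPM in FFA + 9-cis-RA. It spans chromosome 8 from 64587763 to 64798737.

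**Figure D3:**
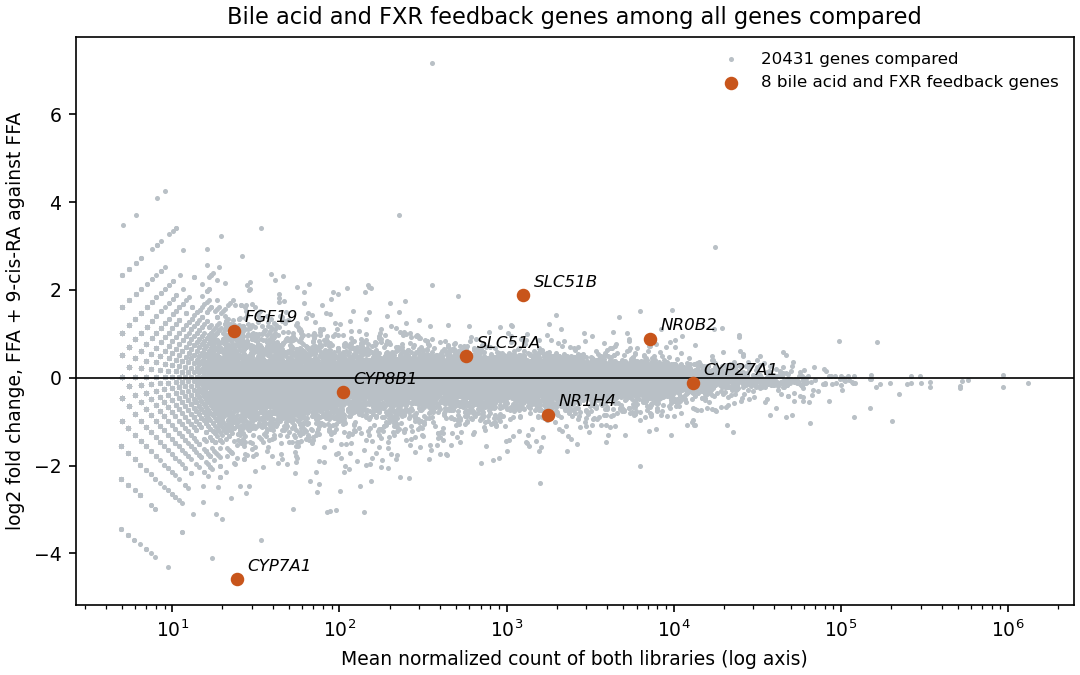
Log2 fold change against mean normalized count (log axis) for the 20431 genes compared (gray), with the 8 bile acid and FXR feedback genes in orange. CYP7A1 lies at the lower edge among genes with few counts, and SLC51B and NR0B2 lie at the upper edge among genes with similar counts.

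Levels of different genes were compared per length, as TPM from the deposited gene lengths. In the FFA library the order was CYP27A1 at 219 TPM, NR0B2 at 208, NR1H4 at 30.3, SLC51B at 28.0, SLC51A at 4.36, CYP8B1 at 1.35, CYP7A1 at 0.795 and FGF19 at 0.392. The counting intervals of NR1H4 and SLC51B overlapped there, as did those of CYP7A1 and FGF19. In the FFA + 9-cis-RA library NR0B2 was highest at 410 TPM, followed by CYP27A1 at 213, SLC51B at 110, NR1H4 at 18.0, SLC51A at 6.53, CYP8B1 at 1.14, FGF19 at 0.909 and CYP7A1 at 0.0180. The intervals of CYP8B1 and FGF19 overlapped in that library. Among all gene entries NR0B2 went from rank 532 to rank 213 by TPM, and SLC51B from rank 4679 to rank 1217.

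These levels depend on the length used. The deposited length of SLC51A, 5263 bases, joins the exons of all its transcripts, while its principal transcript in GENCODE 29 has 1463 bases. SLC51B has 924 and 940 bases. Per deposited length SLC51B transcripts were 6.40 times those of SLC51A in FFA and 16.8 times in FFA + 9-cis-RA. Per principal transcript they were 1.75 and 4.60 times. With principal lengths SLC51A stood at 16.3 TPM (95% interval 15.0 to 17.5) and NR1H4 at 15.6 TPM (95% interval 14.8 to 16.5) in the FFA + 9-cis-RA library, so their order there is not resolved. The fold between the libraries is the same with either length.

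**Figure D4:**
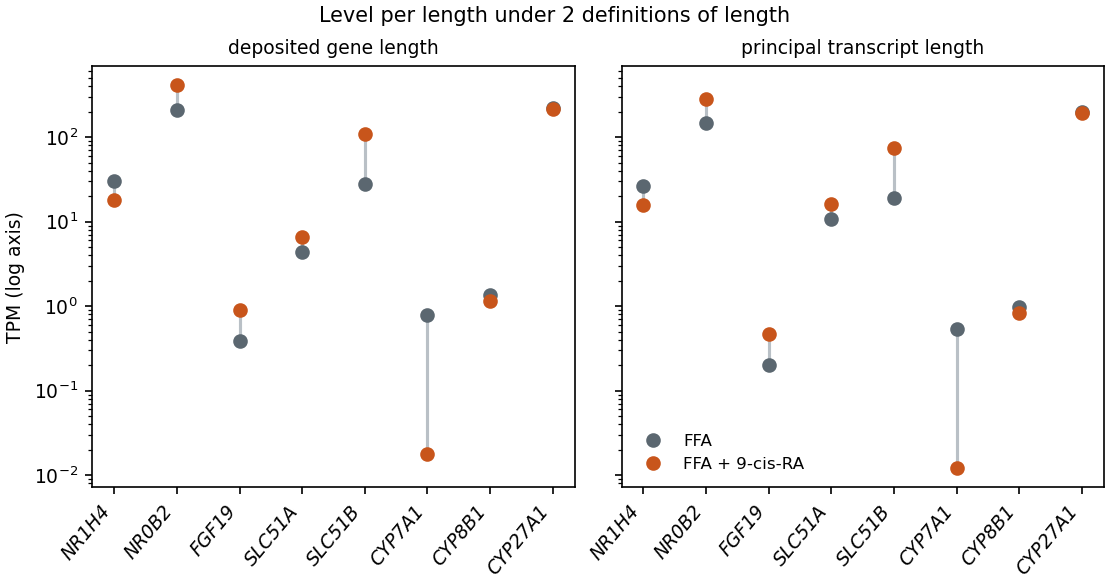
TPM (log axis) of the 8 genes compared in the FFA (gray) and FFA + 9-cis-RA (orange) libraries, 1 each, computed with deposited gene lengths (left) and with principal transcript lengths (right). SLC51A moves up relative to SLC51B on the right, where SLC51B is 1.75 and 4.60 times SLC51A.

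Further genes of the pathway were described by role in 6 lists, which share some genes and hold 67 in all, of which 61 were compared. Above 1 were 3 of the 61 and below -1 were 6, beside the 3.37% and 4.90% of all genes. The median log2 fold change was -0.10. Intervals lay above 0 for 14 of the 61, a share near the 22.5% of all genes, and below 0 for 31, against 25.7%. Shares of intervals that exclude 0 grow with the count of a gene, and the lists were not matched to all genes by count.

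Of 5 compared genes of ring and oxysterol enzymes, 3 were lower beyond counting error and none was higher, against 25.7% and 22.5% of all genes, with a median of -0.53. HSD3B7, which follows CYP7A1 in the pathway, had 7093 and 4416 counts, which gave -0.66 (95% interval -0.71 to -0.60) on the log2 scale. AKR1D1, the steroid reductase of the ring, had 425 and 289 counts, which gave -0.53 (95% interval -0.75 to -0.31) on the log2 scale. CYP39A1 had a value of -0.046 with an interval from -0.26 to 0.17. Among 8 side-chain and conjugation enzymes, 5 were lower and 1 was higher, against the same 25.7% and 22.5%, with a median of -0.10. Only 2 were lower under total counts, a share near the 20.6% of all genes with that scaling. BAAT, which joins bile acids to glycine and taurine, had 149 and 79 counts, which gave -0.88 (95% interval -1.30 to -0.48) on the log2 scale. AMACR had a value of -0.62, although 64.7% of its exons lie under another gene of the same strand and gave no counts. ACOX2 was higher at 0.14 and ACOT8 had a value of 0.045 with an interval from -0.073 to 0.16.

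Of 12 other bile acid and canalicular transporters, 7 were compared and 4 had 0 counts in both libraries. Below 0 were 4 and none lay above, against 25.7% and 22.5% of all genes, with a median of -0.22. ABCC2, a canalicular organic anion pump, had 55295 and 40865 counts, which gave -0.41 (95% interval -0.43 to -0.39) on the log2 scale. ATP8B1, a canalicular phospholipid flippase, had a value of -0.52 (95% interval -0.68 to -0.36). ABCC4, a basolateral exporter, had a value of -0.013 and ABCG5 one of 0.014, and both intervals held 0.

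The 19 receptors and regulators of CYP7A1 had a median of -0.027, with 10 lower and 4 higher beyond counting error, against 25.7% and 22.5% of all genes. The share higher is near that of all genes, and FGFR4 is among the 10. Under total counts 7 were lower and 5 higher, against 20.6% and 28.6% of all genes with that scaling, so the share higher is again near that of all genes. The median was 0.023 under total-count scaling and 0.024 under scaling to protein-coding counts, so it has no stable sign. PROX1, a corepressor of CYP7A1, had 5854 and 2080 counts, which gave -1.46 (95% interval -1.54 to -1.39) on the log2 scale. It was the only one of the 19 past 1 in either direction. NCOA1, a nuclear receptor coactivator, had the value 0.42 (95% interval 0.34 to 0.49).

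Other FXR targets lay on both sides of 0. Of 22 genes 8 were higher and 10 lower beyond counting error, against 22.5% and 25.7% of all genes, with a median of -0.093. Above 1 were 2 and below -1 were 4, against 3.37% and 4.90%. The fibrinogen chain genes FGA and FGG had 5044 and 14333 counts and 12215 and 26421 counts, with log2 fold changes of 1.53 and 1.14. SULT2A1, which encodes a bile acid sulfotransferase, had 18439 and 8536 counts, which gave -1.08 (95% interval -1.12 to -1.05) on the log2 scale. UGT2B4, which glucuronidates bile acids, had 4998 and 2342 counts and a value of -1.07.

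Sulfation, glucuronidation and hydroxylation genes were the list furthest below 0, with a median of -1.07 over 6 genes. Below -1 were 4 of them and 1 was above 1, against 4.90% and 3.37% of all genes. SULT2A1, UGT2B4 and CYP3A4 are counted both here and among the other FXR targets below -1. CYP3A4, a bile acid hydroxylase and 1 of the 4, rests on 19 and 3 counts. UGT2B7 had 5787 and 2589 counts, which gave -1.13 (95% interval -1.20 to -1.07) on the log2 scale. UGT1A1 went the other way, with 1086 and 2874 counts and a value of 1.43 (95% interval 1.33 to 1.53). It shares 49.9% of its exon sequence with other genes of the same strand, which gave no counts.

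**Figure D5:**
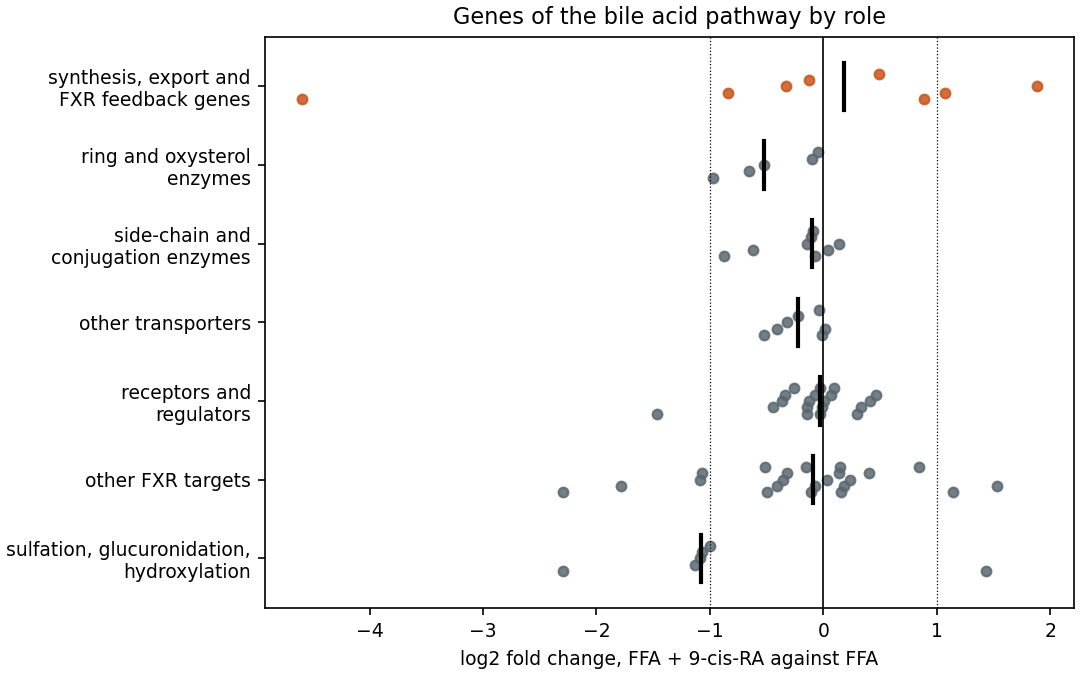
Log2 fold change, FFA + 9-cis-RA against FFA, of each compared gene (points) of the 10 genes and of the 6 pathway lists, with the list median as a black bar; dotted lines mark -1 and 1. The 8 genes at the top spread from -4.59 to 1.88, and the bottom list has its median at -1.07.

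Markers of cell types in which OSTα-OSTβ or FGF19 are also known were read beside these values. Of 10 ileal enterocyte markers 5 were compared, with summed levels of 397 CPM in FFA and 408 CPM in FFA + 9-cis-RA, nearly all from VIL1 and APOA4. The ileal genes SLC10A2, SI and CDX1 had 0 counts in both libraries and FABP6 had 1 in each, while CDX2 had 3 and 14 counts. Of the 5 compared, CDX2 alone had an interval above 0 with the size factors used, against 22.5% of all genes. Below 0, against 25.7% of all genes, lay 3. These were LGALS4 with 15 and 3 counts, FABP2 with 49 and 28, and APOA4 with 2424 and 2020. Of 8 cholangiocyte markers 5 were compared, with summed levels of 396 and 360 CPM, nearly all from SOX9, EPCAM and KRT19. The intervals of SOX9, EPCAM and KRT19 lay below 0 and none lay above, against 25.7% and 22.5% of all genes. CFTR and TFF2 had 0 counts. Non-parenchymal liver markers summed to 25.0 and 17.3 CPM over 12 genes, and PTPRC and DCN had 0 counts. Of the 1523 and 995 counts behind these sums, ACTA2 gave 1186 and 773. Of the 8 compared, 1 interval lay above 0 and 3 below, against 22.5% and 25.7% of all genes. Above 0 was CD68, with 5 and 15 counts, and genes of the same strand overlap 81.6% of its exonic bases. Below 0 were PECAM1, VWF and ACTA2. The part of these markers in the values of SLC51B and FGF19 was not tested.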

How the data were processed

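RNA from 2 HepG2 cultures, FFA and FFA + 9-cis-RA, was sequenced by the study from poly(A)-selected, stranded libraries. The deposited values are unnormalized counts of fragments for each gene, which the authors made on GRCh38 with featureCounts version 2.0.1 (strand setting 2, read pairs with both ends mapped and a fragment length check). With these options multi-mapping fragments, and fragments shared by more than 1 gene, are not counted. The aligner and annotation release are not given in the sources used here, and DESeq2 is named in the submitters' processing notes. Size factors were computed here with DESeq2 version 1.42.0, with TMM from edgeR version 4.0.16 as an alternative, in R version 4.3.3. Intervals (95%, Clopper-Pearson for ratios of 2 libraries, Poisson for single counts, conditional exact for ratios of genes), ranks and motif searches came from scipy 1.17.1, numpy 2.4.6 and pandas 2.3.3 under Python 3.11.15, and plots from matplotlib 3.10.9. All cover counting error only. For a count of 0 a fixed limit of 3 counts was used, while the Poisson interval reaches 3.69. Steps were tested on simulated data drawn with counting error alone, with changes placed only in well-counted genes. Replicate error and changes in genes with few counts were therefore not tested. With 1 library per group no model was fitted and no p-value is given.

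Genes were matched by Ensembl identifier, with gene types, transcript lengths and transcripts from GENCODE 29. The comparison took in genes whose counts in the libraries summed to 10 or more. The 10 genes and the lists were chosen with earlier results of these data known. Named are all 10 genes, the 2 highest and 2 lowest of each list whose normalized count reached 100 in either library, FGFR4, KLB, RXRA, the label check genes, and the nearest compared gene on each side of genes past 1. All 10 hepatocyte markers are named. This choice, that of the other cell type markers named and that of CYP3A4 were made after the values were seen. Alternatives were other scalings, pseudocounts and count minimums. Principal transcript lengths, and the scalings of single pathway genes and of list interval counts, were chosen after seeing the data.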

Additional observations from a re-analysis of the deposited data

How the results depend on the processing

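Each of the 8 genes compared kept its direction under TMM, total-count and protein-coding scaling and with pseudocounts of 0.1 and 5. Of these 40 values, 3 left the main counting interval: NR0B2 was at 0.94 with scaling to protein-coding counts, and CYP27A1 was at -0.081 with total counts and -0.080 with protein-coding counts. CYP7A1 ranged from -5.42 to -3.13 with the pseudocount. The largest shift of the median of all genes under a scaling was 0.050. The number of the 8 genes above 1 fell from 2 to 1 with a pseudocount of 5, with at least 50 counts and with the whole interval past 1, since FGF19 then no longer counts. The number below -1 was 0 with at least 50 counts, because CYP7A1 has 49. Over all genes, 689 above 1 and 1002 below -1 became 341 and 594 with a pseudocount of 5, 3771 and 2493 without a count minimum, 153 and 361 with at least 50 counts, and 79 and 190 with the whole interval past 1. Per length, SLC51B over SLC51A was 1.75 in FFA and 4.60 in FFA + 9-cis-RA with principal transcript lengths, chosen after seeing the data, against 6.40 and 16.8. The median of the regulators of CYP7A1 changed sign, to 0.023 with total counts and 0.024 with protein-coding counts, and that of other transporters was -0.0064 without a count minimum, where genes at 0 enter. Of the pathway genes named, FGFR4 alone changed its call under a scaling, to -0.0066 with TMM, 0.023 with total counts and 0.024 with protein-coding counts. Side-chain and conjugation enzymes below 0 went from 5 to 2 with total counts or protein-coding counts. All genes below 0 went from 25.7% to 20.6% and 20.4% with these. Ileal markers above 0 went from 1 to 2 with each other scaling. All genes above 0 went from 22.5% to 24.9% with TMM, 28.6% with total counts and 28.8% with protein-coding counts. These scalings were chosen after seeing the data. No paired analysis was possible because each group has 1 library.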

Other observations

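Genes beside those past 1 were read as values. MTFMT, the nearest compared gene at lower coordinates of SLC51B at a distance of 15.7 kb, had 923 and 1038 counts and a log2 fold change of 0.20. KBTBD13, at higher coordinates, had 24 and 32 counts, with an interval from -0.37 to 1.27. RASL12, which overlaps the end of SLC51B on the opposite strand, had 5 and 11 counts, with an interval from -0.48 to 3.04. The genes on either side of CYP7A1, UBXN2B and SDCBP, had values of 0.24 and 0.25. Those on either side of FGF19, LTO1 and FADD, had values of 0.065 and -0.067, and both intervals held 0.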
